A study of Mus musculus with 5 samples.

Results

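The clustered protocadherins are cell adhesion genes that lie side by side in 3 groups, alpha, beta and gamma, on mouse chromosome 18. All genes whose symbol begins with Pcdha, Pcdhb or Pcdhg followed by a number, or by a, b or c and a number, were taken, which gave 58 of the 24399 genes of the table: 14 alpha, 22 beta and 22 gamma members. Each was listed with 1 RefSeq transcript. Messenger RNA had been sequenced from LSK cells, the bone marrow fraction without lineage markers and with Sca1 and cKit that holds haematopoietic stem and multipotent progenitor cells. The C57BL/6 mice were 12 months old and came from a study of a germ line gene deletion. Of the 5 libraries, 3 carry KO in their titles but a heterozygous genotype (+/-) in the genotype field, and are called KO-labelled here. The series text also speaks of homozygous animals, so the zygosity of these libraries is in doubt and the comparison is between labels. The other 2 are wild type (WT). A germ line deletion is present in every cell of the animal. Whether each library is a different animal is not stated by the labels, and p-values therefore measure the spread among these 5 samples, part or all of which may be technical.

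A clustered protocadherin is a single-pass membrane protein whose outer part binds the same isoform on a neighbouring cell. In the alpha and gamma clusters each member has its own promoter and its own large first exon, which encodes the outer part, and this exon is spliced to a set of constant exons that all members of the cluster share and that encode the common inner end. The beta members are single-exon genes and share no constant exon. The clusters are best known in neurons, where each cell uses its own choice of isoforms and so tells itself from its neighbours; promoter choice depends on CTCF, cohesin and DNA methylation. Members marked c are the C-type isoforms, which many neurons use together.

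Library totals over 1 transcript a gene lay between 29964556 and 39691066 counts, so that 3 counts, taken as the limit below which a level is not distinguished from 0, equalled 0.076 to 0.1 CPM, the counts scaled to library size. The library size was the total adjusted by the TMM composition factor. All 9 LSK markers of a fixed list, among them Kit, Ly6a (Sca1) and Cd34, were present, and their summed level was 4080 and 3940 CPM in WT libraries 1 and 2 and 3810 to 4130 CPM in KO-labelled libraries. None of the 9 passed, but 4 had an unadjusted p under 0.05 in edgeR: Ly6a (74.9 and 82.0 CPM in WT against 97.2, 90.5 and 105 CPM) and Hlf were higher in every KO-labelled library, Slamf1 was lower in every one, and Cd48 was lower on average with overlapping groups. Of all tested genes, 7.02% were lower and 6.76% higher at that p. Over the 9, every KO-labelled library lay below both WT libraries for 2 (Kit and Slamf1) and above for 2, against 16.3% and 16.5% of all tested genes.

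The deposited gamma rows were largely one measurement repeated. Each gamma transcript was counted over its own first exon and over the 3 constant exons, so reads on the constant exons stood in all 22 rows. The lowest row held 1726 and 2167 counts in WT libraries 1 and 2 and 1304, 1347 and 1186 in KO-labelled libraries 1 to 3, and in no library did it make up less than 80.94% of any gamma row, with a median of 97.32%. Another 3 genes outside the family, Gm37013, Gm38666 and Gm38667, read through from the alpha cluster into the gamma constant exons. Their counts were identical to one another in every library and lay 0 to 5 counts below the lowest gamma row. The lowest row in each library was therefore taken as the shared count, an upper bound for the constant exons, and what a member had above it as its own count, a lower bound for its first exon. Shared and own counts together were 8.03% to 8.98% of the sum of the 22 gamma rows, so adding the deposited rows counts the shared reads many times.

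The alpha rows were shared almost entirely. Of the 14 alpha rows, 12 were identical in every library, with 64 and 15 counts in the WT libraries and 20, 33 and 37 in the KO-labelled libraries. The exceptions were Pcdha8, with 5 and 0 own counts in WT and 0, 17 and 15 in KO-labelled libraries, and the C-type member Pcdhac2, with 0 and 15 against 0, 17 and 3. The WT values thus enclosed all KO-labelled values of the shared alpha count.

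Counted once, the gamma cluster was lower in the KO-labelled libraries. Its shared count stood at 57.6 and 55.4 CPM in WT libraries 1 and 2, and at 36.1, 34.5 and 30.0 CPM in KO-labelled libraries 1 to 3. The groups did not overlap. The means were 56.5 ± 1.51 CPM (SD, n = 2) and 33.5 ± 3.14 CPM (SD, n = 3), and edgeR's quasi-likelihood test gave a log2 fold change of -0.75 ± 0.12 (SE), a 1.69-fold lower level with an adjusted p = 0.00827. An exact two-sided permutation test of the difference of -23.0 CPM gave p = 0.2, with the two-sided p computed by doubling the one-sided p over 10 arrangements. This is the smallest value that it can give for 3 against 2 libraries. In bulk RNA, fewer cells that express the cluster and less RNA per cell cannot be told apart. The call rested on both WT libraries: the log2 fold change was -0.72 (adjusted p = 0.254) without WT library 1 and -0.78 (adjusted p = 0.16) without WT library 2. Without 1 KO-labelled library it stayed between -0.81 and -0.68, with an adjusted p of at most 0.0463.

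As deposited, all 22 gamma rows fell, with log2 fold changes of -0.79 to -0.70 and adjusted p of 0.00481 to 0.0135 in edgeR's quasi-likelihood test. Over all 14565 genes tested, 1.18% were called lower and 0.79% higher, 1.97% in all. Since the shared count made up most of every row, these are not 22 separate results. With shared and own counts as separate rows, 0 of the 21 gamma members with a tested own count passed, the lowest adjusted p being 0.205, while 3 had a lower and 0 a higher level at an unadjusted p under 0.05; DESeq2 also called 0. Among all rows of that fit 0.996% were called lower and 0.728% higher, 1.72% in all. At an unadjusted p under 0.05, 6.92% were lower and 6.72% higher. The own log2 fold change was below 0 for 17 of the 21 gamma members and above 0 for 4. Its median was -0.70, against 0.001 over all rows of that fit, of which 49.8% were below 0. The result on the gamma cluster is thus 1 call, on its shared count. Gm37013, Gm38666 and Gm38667 stayed in that fit as separate rows. They repeat nearly the same counts and are not further results, and the shares over all rows include them.

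**Figure D1:**
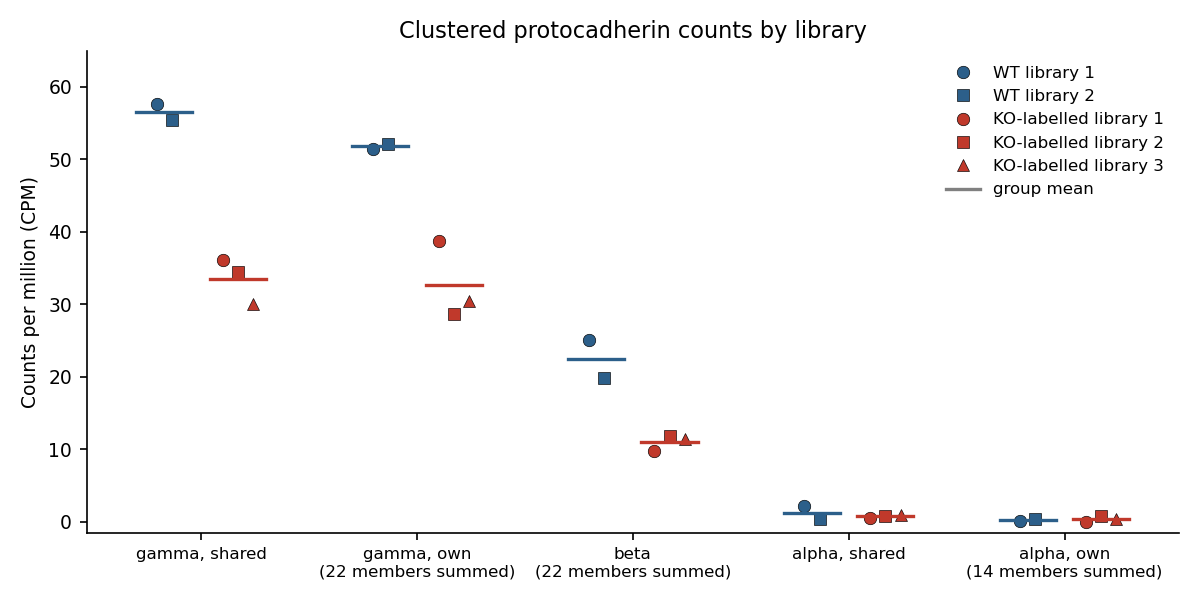
CPM in each library (points) and group means (bars) for the shared gamma count, the summed own counts of the 22 gamma members, the summed beta counts, and the shared and summed own counts of the alpha cluster. The WT libraries lie above all KO-labelled libraries in the 3 gamma and beta quantities, and the groups overlap in both alpha quantities.

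**Figure D2:**
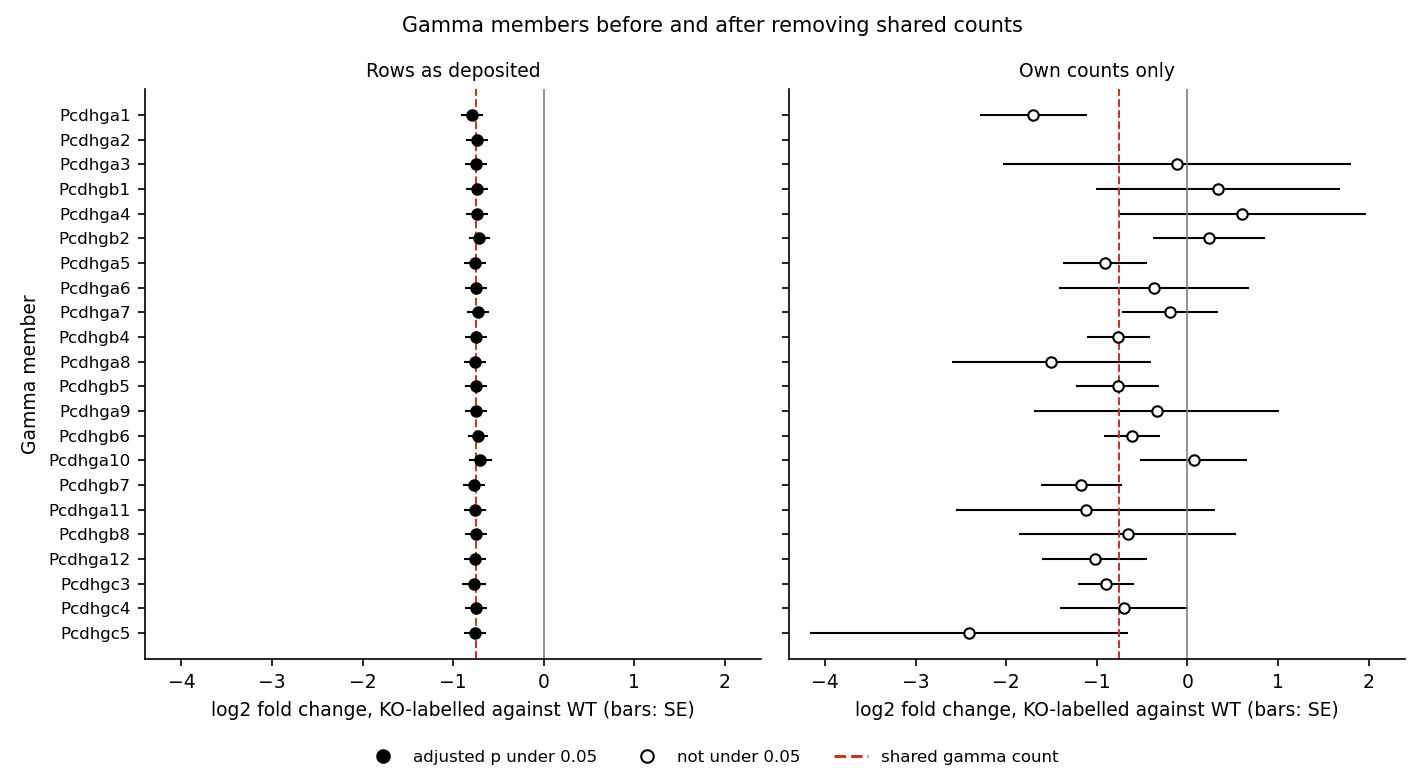
Log2 fold change of each gamma member, KO-labelled against WT, with its standard error, from the rows as deposited (left) and from own counts only (right); filled points passed an adjusted p of 0.05 and the dashed line marks the shared count at -0.75. All 22 members are filled at the left and 0 at the right, where Pcdhga2 was too low to be tested.

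The own counts separate the gamma members by their first exons, as far as reads were assigned to the right member. How reads that match several first exons were treated is not given in the sources used here. Levels, ranks and shares of single gamma members are therefore uncertain, as for beta. Summed over the 22 members, own counts were 51.5 and 52.1 CPM in WT and 38.7, 28.7 and 30.5 CPM in KO-labelled libraries. The groups did not overlap. Per kilobase of first exon, with lengths from GENCODE on GRCm38 and Pcdhgb8 left out, this sum was 67.2% to 86.1% of the shared count per kilobase of constant exon, with 70.8% and 76.5% in WT. No group stood apart in that ratio.

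The leading members were the C-type member Pcdhgc3 and Pcdhgb6. Pcdhgc3 had 12.3 and 9.18 CPM in the WT libraries and 8.50, 4.22 and 4.56 CPM in the KO-labelled libraries. Its groups did not overlap, and the log2 difference of -0.90 ± 0.31 missed the threshold (adjusted p = 0.216 in edgeR), although it passed it without KO library 1 (-1.29, adjusted p = 0.01). Pcdhgb6 had 5.40 and 10.1 CPM in WT and 4.4, 5.81 and 5.11 CPM in KO-labelled libraries. Here the 2 WT libraries differed more from each other than WT library 1 did from the KO-labelled libraries, and the change of -0.61 ± 0.31 did not pass (adjusted p = 0.424). Pcdhgc3 ranked 1 or 2 by own counts in every library and Pcdhgb6 1 to 3. Per kilobase of first exon, on a mean over the 5 libraries, Pcdhgc3 stood at 3.02, Pcdhgb6 at 2.4 and the next member, Pcdhgb4, at 1.32 CPM per kb.

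As a share of all own gamma counts, Pcdhgc3 held 23.8% (95% Wilson interval 21.8 to 26.0) and 17.6% (16.0 to 19.3) in the WT libraries. In the KO-labelled libraries it held 21.9% (19.9 to 24.2), 14.7% (12.8 to 16.9) and 15% (13 to 17.1). Pcdhgb6 held 10.5% (9.07 to 12.1) and 19.4% (17.7 to 21.2) in WT, and 11.4% (9.81 to 13.1), 20.2% (18 to 22.7) and 16.8% (14.8 to 19.0) in KO-labelled libraries. These intervals cover counting error only. The shares did not sort by group: WT library 1 and KO library 1 had more Pcdhgc3 and less Pcdhgb6 than the other 3 libraries.

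Pcdhgb4 was the steadiest of the leading members, with 7.51% to 9.72% of own counts in every library. It had 3.87 and 5.07 CPM in WT and 2.91, 2.41 and 2.63 CPM in KO-labelled libraries (log2 fold change -0.76 ± 0.35, adjusted p = 0.374). Pcdhgb7, with 3.60 and 2.89 against 1.63, 1.38 and 1.32 CPM, had an unadjusted p = 0.0228 in edgeR's quasi-likelihood test and an adjusted p = 0.27. Pcdhgb5 had 3.50 and 2.48 against 2.24, 1.66 and 1.34 CPM. In these 3 B-type members every KO-labelled library lay below both WT libraries, and none passed. Pcdhgb2 (0.734 and 2.74 against 3.10, 1.38 and 1.70 CPM) overlapped between groups, as did the low members Pcdhgb1 and Pcdhgb8.

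Among the 12 A-type members Pcdhga1 had the lowest adjusted p, 0.205, with 4.70 and 1.74 CPM in WT and 1.25, 1.13 and 0.582 CPM in KO-labelled libraries. The groups did not overlap, but WT library 1 was far above WT library 2. Pcdhga5 stood at 3.64 and 3.91 against 1.02, 2.46 and 2.53 CPM and Pcdhga12 at 2.17 and 2.38 against 1.25, 0.640 and 1.47 CPM. Both were lower in every KO-labelled library, and so was Pcdhga8, at 0.277, 0.179 and 0.456 against 0.634 and 1.10 CPM. Pcdhga10 went another way: KO library 1 had 5.34 CPM, the others of its group 1.64 and 1.72 CPM, and the WT libraries 1.53 and 3.94 CPM. Pcdhga7 (1.5 and 2.61 against 1.16, 2.41 and 1.85 CPM) overlapped, and so did Pcdhga4, Pcdhga6 and Pcdhga11.

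Over all 22 gamma members, own counts in every KO-labelled library lay below both WT libraries for 9 members, above for 1 and overlapped for 12. Across all rows tested in that fit, 16.2% lay below and 16.5% above. The member that lay above was Pcdhga2, too low to be tested and named after its values were seen, with 0 and 1 own counts in WT and 32, 2 and 8 in KO-labelled libraries. It and Pcdhga3, Pcdhga9 and the C-type Pcdhgc5 averaged under 10 own counts and reached at most 32 in any library. The remaining C-type member, Pcdhgc4, had 3 and 0.665 CPM in WT and 1.30, 0.793 and 1.27 CPM in KO-labelled libraries. By type, the summed own counts were 16.1 and 18.5 against 12.9, 10 and 11.5 CPM for A-type, 19.6 and 23.4 against 16.1, 13.5 and 13.1 CPM for B-type, and 15.7 and 10.2 against 9.80, 5.25 and 5.82 CPM for C-type members. In each type the KO-labelled libraries lay below both WT libraries.

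**Figure D3:**
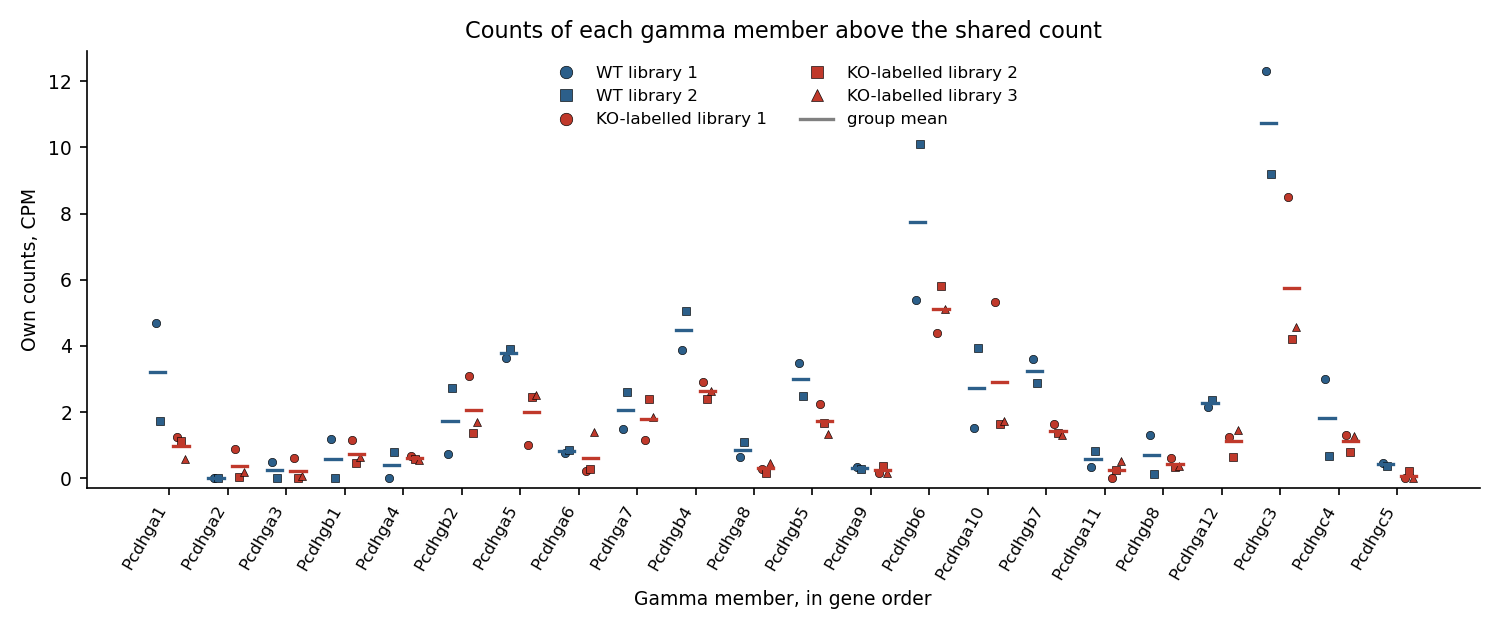
Own counts of the 22 gamma members in CPM, in gene order, for each library (points) with group means (bars). Pcdhgc3 and Pcdhgb6 stand highest, and Pcdhga10 shows KO library 1 at 5.34 CPM above the 4 other libraries.

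The beta members share no exon with one another, so each row is a count of its own. They are similar in sequence, however, and the treatment of reads that match several of them is not given in the sources used here. Single beta values are therefore uncertain. Over all 22 beta members the summed count was 752 and 773 in the WT libraries and 351, 463 and 455 in the KO-labelled libraries. In CPM this was 25.1 and 19.8 against 9.72, 11.8 and 11.5, with no overlap and a ratio of the group means, WT over KO-labelled, of 2.03. No test was made of this sum. The ratio of the shared gamma means was 1.68 and that of the summed own gamma counts 1.59.

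No beta member passed on its own. Of the 22, 16 passed the filter on low counts, 0 were called by edgeR or DESeq2, and 2 were lower and 1 higher at an unadjusted p under 0.05, where 7.02% and 6.76% of all tested genes were lower and higher. Every KO-labelled library lay below both WT libraries for 6 members and above for 1, all of them among the 16 tested. Of all tested genes, 16.3% lay below and 16.5% above. The log2 fold change was below 0 for 15 of the 16 tested beta members and above 0 for 1. Its median was -1.21, against 0.001 over all rows tested. Pcdhb17 had the lowest adjusted p. It stood at 3.74 and 4.27 CPM in WT and 1.36, 1.43 and 1.57 CPM in KO-labelled libraries, a log2 fold change of -1.46 ± 0.41 (adjusted p = 0.118, edgeR, with own and shared rows). Pcdhb16, as abundant in WT at 3.94 and 3.81 CPM, had 2.71, 2.46 and 4.36 CPM in KO-labelled libraries, where library 3 was the highest of all 5.

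Pcdhb12 had 47 and 34 counts in the WT libraries and 0, 7 and 4 in the KO-labelled libraries, an unadjusted p = 0.0172 in edgeR's quasi-likelihood test and an adjusted p = 0.237. Pcdhb4 had 59 and 49 against 36, 18 and 13 counts, Pcdhb3 21 and 26 against 0, 13 and 0, Pcdhb14 60 and 19 against 0, 0 and 15, and Pcdhb2 14 and 20 against 16, 3 and 0. After scaling to library size these 4 members and Pcdhb12 and Pcdhb17 made up the 6 that did not overlap. Pcdhb22 ranged from 25 to 138 counts within the KO-labelled group and Pcdhb5 from 15 to 75, so their groups overlapped. Pcdhb13, Pcdhb18, Pcdhb19, Pcdhb20 and Pcdhb21 also overlapped, at 0 to 52 counts. The member that lay above was Pcdhb1, named after its values were seen, with 0 counts in both WT libraries and 20, 3 and 12 in KO-labelled libraries (adjusted p = 0.32). Pcdhb6 and Pcdhb8 had 0 counts in all 5 libraries, which allows up to 0.1 CPM, for counting error only.

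**Figure D4:**
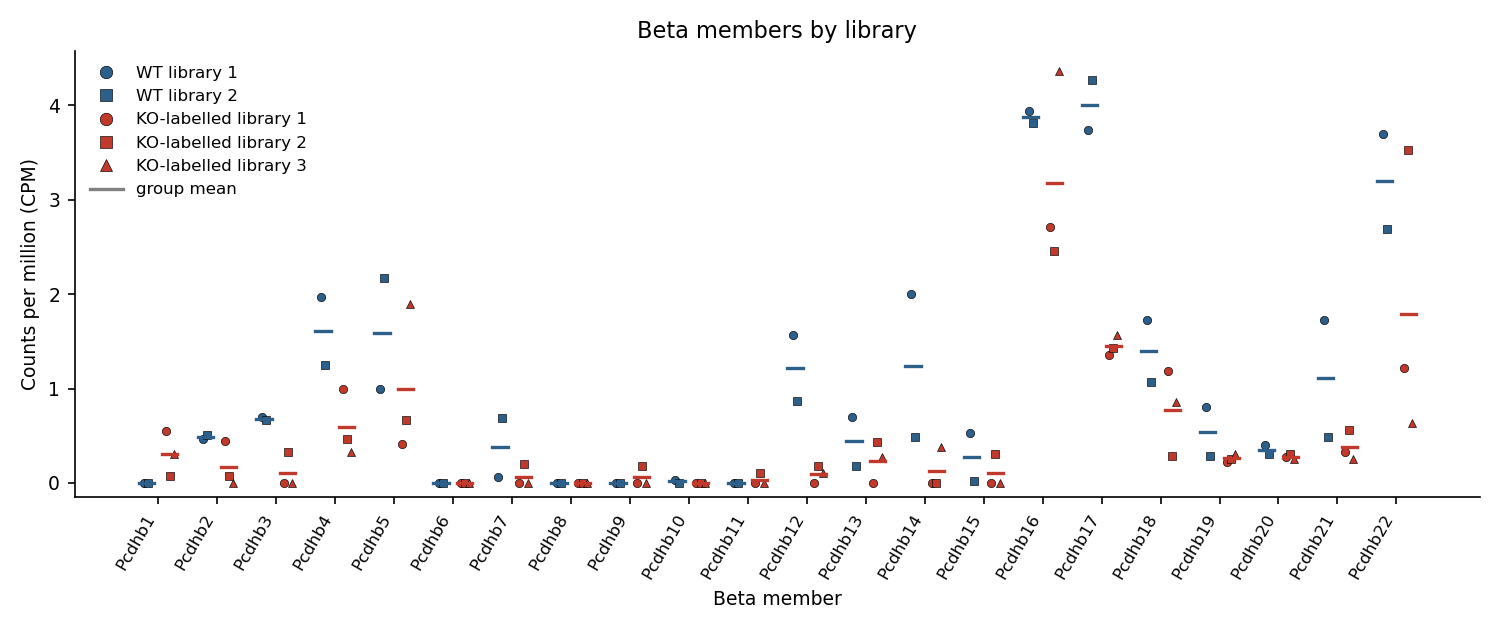
CPM of the 22 beta members in each library (points) with group means (bars). Pcdhb17 separates the groups, with 3.74 and 4.27 CPM in WT and 1.36 to 1.57 CPM in KO-labelled libraries, while Pcdhb16 and Pcdhb22 overlap.

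The alpha cluster was the lowest of the 3, at 15 to 64 shared counts in a library. Its shared count was 2.13 and 0.384 CPM in WT and 0.554, 0.844 and 0.937 CPM in KO-labelled libraries, a log2 fold change of -0.68 ± 0.87 (adjusted p = 0.80 in edgeR). The direction came from WT library 1, and without it the log2 fold change was 1.02. Per kilobase of constant exon, the alpha count averaged 0.339 CPM per kb over the libraries, against 20.2 CPM per kb for the gamma cluster.

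No gene beside or inside the clusters passed the test. Of 23 genes of a list of neighbours, 20 were tested, 0 rose and 0 fell, 4 had a log2 fold change below 0 and 16 above, and the median was 0.12, against 0.001 over all genes tested. Zmat2, a zinc finger gene before the alpha cluster, stood at 165 ± 12.7 CPM in WT (SD, n = 2) and 169 ± 22.2 CPM in KO-labelled libraries (SD, n = 3). Taf7, a subunit of the general transcription factor TFIID that lies between the beta and gamma clusters, had 21.7 ± 0.791 CPM in WT and 24.9 ± 1.46 CPM in KO-labelled libraries, a log2 fold change of 0.20 ± 0.15 with an adjusted p = 0.609 in edgeR. Diaph1, an actin-nucleating formin that follows the gamma cluster, had a log2 fold change of 0.03 ± 0.07, the abundant neighbour Ik had 0.13 ± 0.08, and Ankhd1 had 241 CPM in both groups' means. Slc25a2, the other gene inside the region, had 0 counts in every library. Among the 20 tested neighbours, every KO-labelled library lay above both WT libraries for 6, including Taf7 and Ik, and below for 0. For all tested genes these shares were 16.5% and 16.3%.

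**Figure D5:**
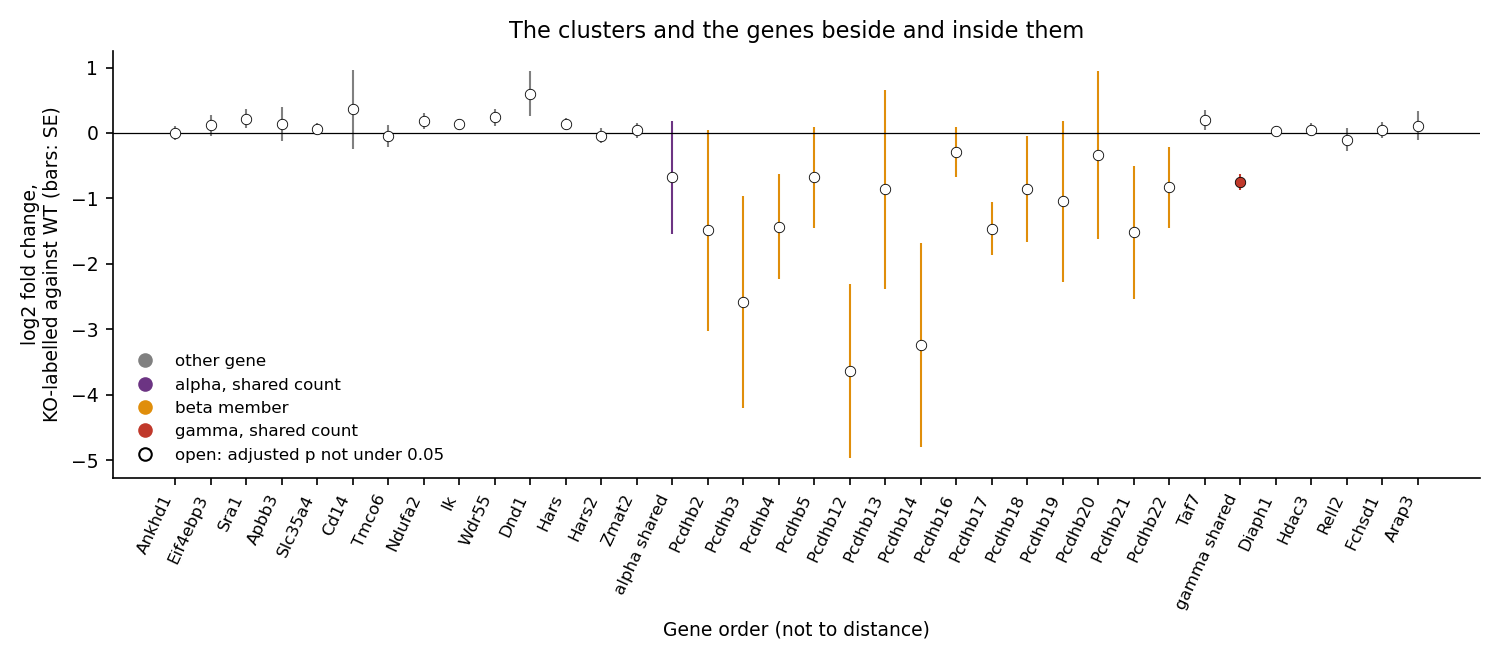
Log2 fold change, KO-labelled against WT, with its standard error, for tested genes beside and inside the clusters, the shared alpha and gamma counts, and the 14 beta members averaging at least 10 counts, in gene order and not to distance. The shared gamma count at -0.75 is the 1 filled point, past an adjusted p of 0.05; Taf7 and Diaph1 on either side lie at 0.20 and 0.03.

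Genes that act on these clusters were called in neither direction. Of 30 chromatin regulators, which include CTCF, the cohesin subunits and loaders, the SMC protein Smchd1 that represses the clusters, and the DNA methyltransferases, all were tested and 0 rose and 0 fell, with 16 below 0 and 14 above on the log2 scale. At an unadjusted p under 0.05 in edgeR there were 4, Atf7ip (-0.23), Rest (-0.34), Tet1 (-0.34) and Tet2 (-0.61), each lower in every KO-labelled library. Of all tested genes, 7.02% were lower and 6.76% higher at that p. Over the 30, every KO-labelled library lay below both WT libraries for these 4 and above for 7, against 16.3% and 16.5% of all tested genes. Ctcf stood at 329 ± 15.8 CPM in WT and 327 ± 11 CPM in KO-labelled libraries, and Smchd1 at 279 ± 21.1 against 276 ± 18.2 CPM. The most abundant of the list, Trim28, a corepressor of zinc finger proteins, Smc1a, a cohesin subunit, and Dnmt1, the maintenance methyltransferase, had log2 fold changes of 0.09 ± 0.07, 0.07 ± 0.07 and 0.05 ± 0.08. Tet2, the 5-methylcytosine dioxygenase, had the lowest adjusted p of the list (0.11 in edgeR), at 52.0 ± 0.741 against 34.1 ± 8.44 CPM. Of 26 genes of cleavage and signalling, 24 were tested and 0 passed, and the median log2 fold change was -0.02. At an unadjusted p under 0.05 in edgeR there were 3, Psen2 (-0.30) and Ncstn (-0.23), lower, and Snx27 (0.26), higher. At that p, 7.02% of all tested genes were lower and 6.76% higher. Adam10, the protease that cuts the outer part of gamma protocadherins, stood at 405 ± 26.3 against 362 ± 6.18 CPM (adjusted p = 0.38). Cyfip2, a subunit of the WAVE complex, and Ctnnb1, beta-catenin, had log2 fold changes of 0.02 ± 0.09 and 0.08 ± 0.07.

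Other protocadherins and cadherins were mostly low. Of 28 measured, 13 were tested and 0 passed, with 3 at an unadjusted p under 0.05 and a median log2 fold change of -0.46, against 0.001 over all genes. Celsr1, a seven-pass cadherin of planar cell polarity, was the most abundant and had the lowest adjusted p, at 74.3 ± 0.605 CPM in WT and 53.9 ± 7.72 CPM in KO-labelled libraries (adjusted p = 0.0931). Cdh1 (E-cadherin) was higher in every KO-labelled library, at 2.08, 2.07 and 2.23 against 0.901 and 0.537 CPM (adjusted p = 0.259). Of all tested genes, 7.02% were lower and 6.76% higher at an unadjusted p under 0.05. Celsr2, a relative of Celsr1, stood at 10.8 ± 1.25 against 7.39 ± 0.887 CPM. The non-clustered protocadherin Pcdh7 stood at 29.3 ± 6.98 against 28.5 ± 3.95 CPM. Among the 13 tested, every KO-labelled library lay below both WT libraries for 3 (Celsr1, Celsr2 and Cdh5) and above for 1 (Cdh1). For all tested genes these shares were 16.3% and 16.5%.

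Of the markers of other cell types, Pdgfrb and Cldn5 passed the test, both lower in KO-labelled libraries. Over all genes tested, 1.18% were called lower and 0.79% higher. The stromal and pericyte list, 12 genes of which 5 were tested, summed to 140 and 130 CPM in WT and 73.6 to 98.3 CPM in KO-labelled libraries. Pdgfrb, the receptor that marks pericytes, fell (111 ± 8.89 against 64.6 ± 16.0 CPM, adjusted p = 0.0388) and made up most of that sum; without it the list summed to 21.8 and 24.9 against 15.2 to 24.6 CPM, and Lum and Rgs5 were at 0 in every library. The endothelial list, 10 genes of which 9 were tested, summed to 455 and 547 against 279 to 483 CPM; the tight junction gene Cldn5 fell (10.5 ± 0.608 against 1.87 ± 0.468 CPM, adjusted p = 0.00161), and Sox17 was at 0. The other endothelial genes did not pass, and over the 9 tested 5 had a log2 fold change below 0 and 4 above, with a median of -0.07. Besides Cldn5, the cadherin gene Cdh5 was lower in every KO-labelled library, at 0.332, 0.742 and 0.709 against 0.767 and 1.59 CPM (adjusted p = 0.684 in edgeR). Kdr, the VEGF receptor, was higher in every one, at 18.5, 9.85 and 11.5 against 9.67 and 9.8 CPM (adjusted p = 0.502 in edgeR). Over the endothelial list this made 2 below and 1 above, against 16.3% and 16.5% of all tested genes. Vwf, Tek and Emcn, the most abundant, overlapped. The neural and glial list, 10 genes, summed to 3.57 and 3.86 against 3.49 to 3.95 CPM, with Snap25 and Rbfox3 at 0. Of the lineage list, 7 of 8 genes were measured; they summed to 113 and 105 against 54.2 to 102 CPM and 0 passed. The part of these markers in the protocadherin levels was not tested.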

How the data were processed

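The deposited table holds raw read counts, which the authors made for 33862 transcripts in 5 libraries. The submitters' processing notes name STAR, featureCounts of Subread 1.4.5-p1 and the build mm9 (NCBIM37). Libraries were stranded, per the labels' protocols. How strand and shared reads were counted is not given in the sources used here. Symbols came from RefSeq (GRCm38) for 33485 transcripts and from GENCODE for 188; 189 stayed unnamed (0.362% to 0.459% of counts). The transcript with the most counts stood for each gene, leaving 24399. Exon lengths came from GENCODE on GRCm38.

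The tests were edgeR 4.0.16's robust quasi-likelihood tests (R 4.3.3), two-sided, after its filterByExpr filter and TMM scaling, with Benjamini-Hochberg adjustment over all rows and a threshold of 0.05. The biological coefficient of variation was 18.9%. For the alpha and gamma clusters the lowest row per library became 1 shared row and was subtracted from each member. The edgeR test was run on simulated counts. The subtraction was run on simulated counts in which 1 member had 0 own counts in every library, where it is exact by construction. No deposited gamma row was the lowest in every library, so that run cannot show how far the gamma split is off. Exact tests and intervals used scipy 1.17.1. Alternatives were DESeq2 1.42.0, other scalings and filters, leaving out each library, and a block for replicate number. Named members were the shared rows, members averaging at least 10 own counts and any past the threshold; in other lists, those past the threshold and the 3 most abundant. Named outside this rule, after their values were seen, were Pcdhb1, Pcdhb6, Pcdhb8, Pcdhga2, Pcdhga3, Pcdhga9, Pcdhgc5, Pcdha8, Pcdhac2, Ctcf, Smchd1, Atf7ip, Rest, Tet1, Tet2, Psen2, Ncstn, Snx27, Cdh1, Zmat2, Taf7, Slc25a2 and the cell type markers other than Pdgfrb, Cldn5, Kit, Cd34, Hlf, Vwf, Tek and Emcn. The deleted gene is not reported here. Members and lists were chosen with earlier results of these data known.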

Additional observations from a re-analysis of the deposited data

How the results depend on the processing

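The 22 gamma rows as deposited were called under both scalings, DESeq2, both other filters and summed transcripts. A block for replicate number (replicate block) left 20, and leaving out 1 library left 0 to 22, with 0 called without either WT library, where the lone WT sample is taken to vary as the KO-labelled ones do. With shared and own rows, the 1 call became 0 with the replicate block and 0 to 2 with 1 library left out; the second, without KO library 1, was Pcdhgc3. The shared gamma log2 fold change was -0.68 (adjusted p = 0.0503) with the replicate block and -0.81 to -0.68 with 1 library left out. Otherwise it was -0.76 to -0.75 and called, also with Gm37013 as the shared row, an alternative chosen after the data were seen. Same-numbered libraries correlated at 0.04 and 0.02 in their deviations from group means, which does not show that the numbers pair them. The difference of -23.0 CPM ranged from -24.3 to -21.2 with 1 library left out. Over all genes, 287 calls became 521 with DESeq2, 455 with no filter, 160 with the block and 6 to 675 with 1 library left out.

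Of 382 values of 33 rows not called, 364 kept direction and side, 17 turned sign and 1 (Pcdhgc3) passed. With 1 library left out, log2 fold changes that turned ranged from -1.45 to 1.02 for shared alpha, -1.61 to 0.42 for Pcdhb13, -0.67 to 7.86 for Pcdhgb1, -0.37 to 7.48 for Pcdhga4, -0.41 to 1.48 for Pcdhgb2, -1.69 to 0.03 for Pcdhga6, -0.52 to 0.27 for Pcdhga7, -0.71 to 0.92 for Pcdhga10, -1.53 to 1.79 for Pcdhgb8 and -1.42 to 0.75 for Pcdhgc4. The 7.86 and 7.48 stand against a WT library at 0 and are no bounds. With the lowest member fixed over libraries Pcdhga6 turned to 0.49 and Pcdhga7 to 0.08, and with the block Pcdhgb8 turned to 0.09. The causes were not tested. Low own counts limit the precision of single members: standard errors were 0.31 for Pcdhgc3 and 1.10 for Pcdhga8, against 0.12 for the shared gamma count.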
